A study of Mus musculus with 12 samples.

Results

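MHC class I and class II genes were followed in mouse kidney after contrast-induced acute kidney injury. The group holds 10 genes, taken by Ensembl number from both expression tables: Cd74, H2-Aa, H2-Ab1, H2-Eb1 and Ciita of the class II system, and H2-K1, H2-D1, B2m, Tap1 and Tap2 of the class I system. They are 10 of 32199 genes listed for the first set of libraries and 10 of 31719 for the second. All animals were male, aged 8 weeks, and all had been through the same injury protocol: removal of a kidney, 3 weeks of recovery, 24 h with no water, furosemide, and 20 min later an intravenous dose of the contrast agent iodixanol. The kidney left was taken 24 h after that, and its poly(A) RNA was sequenced. The first set (set 1, called batch 1 in the labels) has 3 wild-type C57BL/6 libraries and 3 of mice labelled knockout of Padi4, the gene of PAD4, an enzyme needed for neutrophils to cast out chromatin as extracellular traps. The second set (set 2, batch 2) has another 3 wild-type libraries and 3 labelled knockout of Il33, the gene of an alarmin cytokine. How either knockout allele was made is not given in the sources used here, and no kidney without contrast injury was analysed here.

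MHC class I molecules, a heavy chain such as H2-K or H2-D bound to beta-2-microglobulin, display peptides from the cytosol on nearly all nucleated cells. The TAP transporter carries those peptides into the endoplasmic reticulum. MHC class II molecules display peptides taken up from outside, and they are made mainly by macrophages, dendritic cells and B cells, with the invariant chain CD74 guiding them to the lysosomal compartment where peptides are loaded. In the kidney, resident macrophages and dendritic cells are the best known class II cells, and tubular epithelium can make class II when stimulated by interferon-gamma.

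Values are FPKM (fragments per kilobase of transcript, relative to the fragments mapped), which allows levels of genes of different length to be set side by side. Sequencing depth is unknown. Summed FPKM per library ran from 700601 to 812981 in set 1 and from 385124 to 420279 in set 2, so the sets were treated as scaled separately and each knockout was compared with the wild type of its own set. Transcripts of the mitochondrial genome made up 52.0% to 60.0% of that sum in set 1 and 24.1% to 29.2% in set 2. The part of this difference in the levels of the MHC genes was not tested. None of 13 markers of kidney epithelium was at 0 throughout a set, and they had summed levels of 5090 to 25412 FPKM in set 1 and 11870 to 18509 FPKM in set 2. In set 1 there were also 15 colon markers that kidney does not share, at a summed level of 360 to 594 FPKM in wild type and 117 to 206 FPKM in PAD4 knockout kidneys, against 5.84 to 41.4 FPKM over the 6 libraries of set 2. Padi4 had 0.704, 1.06 and 1.67 FPKM in the wild type of set 1 and 0.217, 0.497 and 0.187 FPKM in PAD4 knockout kidneys. Il33 had 1.71, 1.13 and 3.64 FPKM in the wild type of set 2 and 1.14, 0.616 and 1.02 FPKM in the libraries labelled IL-33 knockout. The Il33 values of these groups overlapped and their difference did not pass (limma adjusted p = 0.099), so the transcript did not check that label. In set 1 Il33 was lower in PAD4 knockout kidneys, with 3.57, 5.29 and 3.28 FPKM against 0.889, 1.58 and 1.28 FPKM, no overlap, and limma adjusted p = 0.00208. Xist, a transcript of the inactive X chromosome of females, was at 1.78 to 4.97 FPKM in the wild type of set 1 and 0.389 to 1.52 FPKM in PAD4 knockout kidneys, and at 0 to 0.0151 FPKM in set 2, although the labels give males only. Ddx3y, Uty and Eif2s3y, genes of the Y chromosome, were above 0 in every library of both sets. In set 1 Ddx3y was at 1.97 to 2.70 FPKM in wild type and 2.32 to 2.60 FPKM in PAD4 knockout kidneys. Eif2s3y was at 7.38 to 12.1 FPKM and 4.16 to 11.1 FPKM there. The source of the Xist transcripts was not tested.

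In every group B2m had the highest mean level of the 10 genes and Ciita the lowest. In the wild type of set 1 the order of mean FPKM was B2m (218 ± 68.3, SD, n = 3), H2-D1 (111 ± 31.7), H2-K1 (96.1 ± 21.9), Cd74 (66.4 ± 16.7), H2-Eb1 (14.4 ± 3.09), H2-Ab1 (11.6 ± 3.89), H2-Aa (9.15 ± 2.66), Tap2 (6.81 ± 1.32), Tap1 (3.92 ± 0.853) and Ciita (0.113 ± 0.0688). Of the neighbours in that order, H2-D1 and H2-K1, H2-K1 and Cd74, H2-Eb1 and H2-Ab1, H2-Ab1 and H2-Aa, and H2-Aa and Tap2 overlapped between libraries. In the wild type of set 2 the class II genes stood lower in the order, with Tap2 (7.17 ± 1.24) above H2-Ab1 (6.31 ± 2.60), H2-Eb1 (5.64 ± 1.94) and H2-Aa (3.00 ± 0.883), although Tap2 overlapped with both H2-Ab1 and H2-Eb1 there. In the libraries labelled IL-33 knockout, Cd74 (90.6 ± 7.15) reached the level of H2-K1 (90.6 ± 2.42), and all 3 class II chain genes lay above Tap2.

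**Figure D1:**
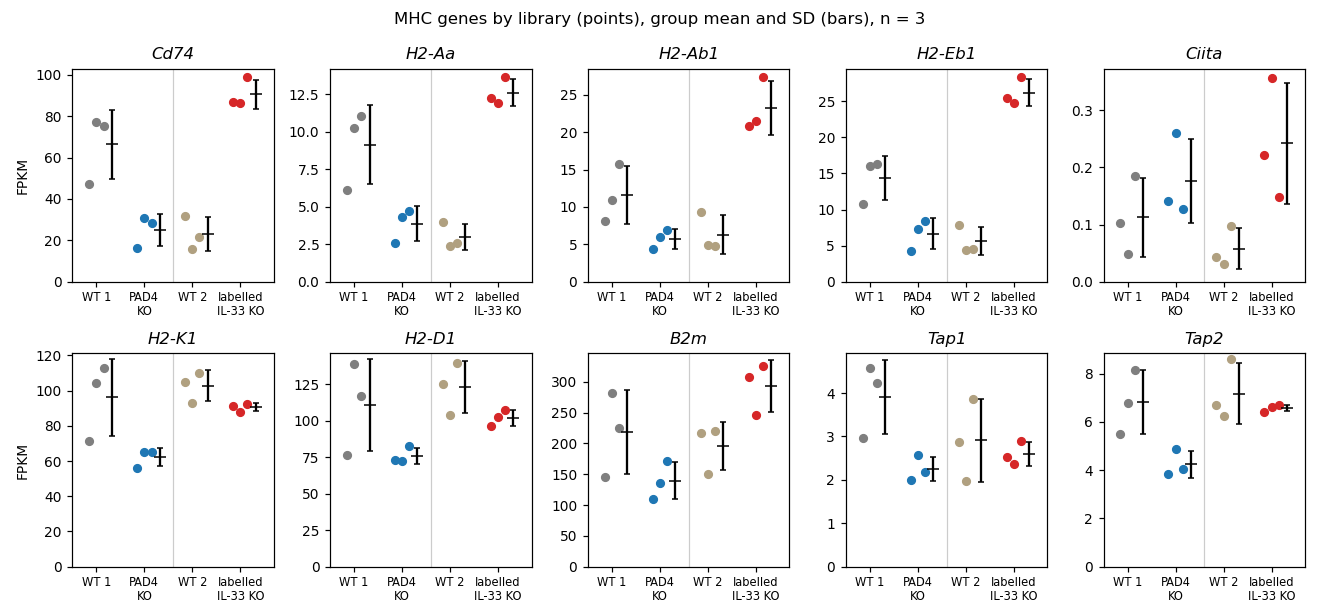
FPKM of the 10 MHC genes in each library (points) with the group mean and SD (bars, n = 3), on axes that start at 0. WT 1 and WT 2 are the wild types of set 1 and set 2. Cd74, H2-Aa, H2-Ab1 and H2-Eb1 lay lower in the PAD4 knockout than in WT 1 and higher in the libraries labelled IL-33 knockout than in WT 2, with no overlap between the groups compared. The share of all genes without such overlap was not counted.

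The proximal promoters of a pair of class II genes and of the class I light chain gene are shown as examples of both classes. B2m changed in the same direction as the class II genes in both comparisons (-0.61 and 0.58), by smaller amounts, and did not pass in set 1. Class II promoters are known for the X box, which the RFX complex binds, a following cyclic AMP response element and the Y box, a CCAAT box bound by NF-Y. CIITA joins the proteins assembled on these boxes. Class I promoters also carry elements for interferon regulatory factors and for NF-kappa B. The windows run from 140 to 2 bases before the RefSeq start on GRCm38.p6 and hold no annotated exon. They were read from a table of RefSeq promoters, of which entries for 6 of the 10 genes were used, and they are H2-Aa at chr17:34287825-34287963 on the minus strand, H2-Eb1 at chr17:34305727-34305865 on the plus strand and B2m at chr2:122147547-122147685 on the plus strand. Capitals mark matches to CTNGCAAC (X box core), TGACG (part of the cyclic AMP response element, in H2-Aa on both strands, overlapping) and CTGATTGG (Y box with its flank) in the class II genes. In B2m they mark GAAACTGAA (part of an interferon-stimulated response element), GGAAAGTCC (part of a kappa B site), TGACG and ATTGG (the Y box core).
H2-Aa: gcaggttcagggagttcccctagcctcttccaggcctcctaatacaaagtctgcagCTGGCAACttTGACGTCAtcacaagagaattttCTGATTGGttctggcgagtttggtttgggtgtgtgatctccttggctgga
H2-Eb1: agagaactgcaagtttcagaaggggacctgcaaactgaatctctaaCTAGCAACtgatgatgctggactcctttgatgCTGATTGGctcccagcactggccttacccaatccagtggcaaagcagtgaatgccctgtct
B2m: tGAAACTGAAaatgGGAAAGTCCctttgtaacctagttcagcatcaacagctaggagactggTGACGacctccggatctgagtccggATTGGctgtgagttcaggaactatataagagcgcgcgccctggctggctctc

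Both class II windows held CTNGCAAC, at 84 to 77 bases before the start in H2-Aa and 94 to 87 in H2-Eb1, followed by CTGATTGG at 51 to 44 and at 62 to 55. Searched on both strands, CTNGCAAC was in 1.76% of the 32851 RefSeq promoter windows of the same length and CTGATTGG in 3.06%, the window of H2-D1 among them. The shorter ATTGG, which lies inside CTGATTGG, was in 23.4% and TGACG in 12.8% of windows. GAAACTGAA was in 0.256% and GGAAAGTCC in 0.17%. A further pair of class I motifs, TTTCACTTC of the interferon response (0.189% of windows) and GGGATTCCC, another part of a kappa B site (0.134%), was found in the window of H2-K1 among the 6 genes. A match of letters is a description of the sequence and not evidence that a factor was bound in these kidneys.

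In PAD4 knockout kidneys, the class II chain genes and the invariant chain gene were lower than in wild type, to between 37.8% and 49.4% of the wild-type mean. Of 9 MHC genes that passed the filter on level (a mean FPKM of at least 0.5), 4 were lower and 0 higher at an adjusted p under 0.05, and those 4 were Cd74, H2-Aa, H2-Ab1 and H2-Eb1. Over all 13986 genes tested in this comparison, 17.7% were called, with 8.79% called lower and 8.89% higher. The class I genes had lower means in the knockout as well, but 0 of 5 passed. Tests are two-sided, by limma on log2(FPKM + 1) adjusted by Benjamini-Hochberg over every gene tested, and changes are knockout minus wild type on that scale.

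Cd74, which encodes the invariant chain, had 47.2, 76.97 and 75.1 FPKM in wild-type kidneys and 16.3, 30.7 and 28.4 FPKM in PAD4 knockout kidneys. Each knockout library lay below each wild-type library, and the mean fell from 66.4 ± 16.7 to 25.1 ± 7.75 FPKM. The change was -1.39 ± 0.34 (SE), limma adjusted p = 0.00836. H2-Aa, the alpha chain gene of the I-A molecule, had 6.12, 10.3 and 11.1 FPKM in wild-type kidneys and 2.56, 4.35 and 4.73 FPKM in the knockout. These groups did not overlap, and the change was -1.05 ± 0.28 (SE), limma adjusted p = 0.0146. H2-Ab1, the beta chain gene of I-A, had 8.07, 10.9 and 15.8 FPKM against 4.33, 5.97 and 6.87 FPKM. Its highest knockout library lay under its lowest wild-type library, and the change was -0.88 ± 0.29 (SE), limma adjusted p = 0.0412. H2-Eb1, the beta chain gene of the I-E molecule, had 10.8, 16.0 and 16.3 FPKM in wild-type kidneys and 4.25, 7.27 and 8.47 FPKM in the knockout. The groups did not overlap, and the change was -1.03 ± 0.30 (SE), limma adjusted p = 0.0209. In each of these 4 genes wild-type library 1 was the lowest of its group and knockout library 1 the lowest of its own.

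Ciita, the gene of the transactivator that class II genes need, was under the level tested. It had 0.103, 0.0490 and 0.186 FPKM in wild-type kidneys and 0.142, 0.260 and 0.127 FPKM in PAD4 knockout kidneys, and these groups overlapped.

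Among the class I genes, H2-K1, a classical heavy chain gene, had 71.3, 104 and 113 FPKM in wild-type kidneys and 56.3, 64.9 and 65.3 FPKM in PAD4 knockout kidneys. Its groups did not overlap, but the change of -0.60 ± 0.32 (SE) did not pass (limma adjusted p = 0.223). H2-D1, the other classical heavy chain gene, had 76.3, 139 and 117 FPKM against 73.0, 72.4 and 82.5 FPKM, with overlap. Its change was -0.50 ± 0.33 (SE), limma adjusted p = 0.335. B2m, the light chain gene, had 146, 282 and 225 FPKM in wild-type kidneys and 111, 136 and 171 FPKM in the knockout. These values overlapped too, and the change was -0.61 ± 0.34 (SE), limma adjusted p = 0.241. The transporter gene Tap1 had 2.95, 4.57 and 4.23 FPKM against 2.00, 2.56 and 2.19 FPKM (-0.59 ± 0.23 (SE), limma adjusted p = 0.0844). Tap2, its partner, had 5.49, 6.80 and 8.13 FPKM against 3.82, 4.88 and 4.03 FPKM (-0.57 ± 0.25 (SE), limma adjusted p = 0.127). Neither transporter gene overlapped between the groups, and both passed under median-of-ratios scaling (adjusted p = 0.0293 for Tap1 and 0.0298 for Tap2) and quantile normalization (0.0244 and 0.0241). Calls over all genes rose under these settings as well, from 2473 of 13986 to 3419 of 13928 and 3678 of 13969. H2-K1 passed under quantile normalization alone (-0.97, adjusted p = 0.0325). Tap1 overlaps Psmb9 on the opposite strand, and whether reads were counted by strand is not given in the sources used here. The H2-K1 and H2-D1 values are uncertain where reads are shared, since 8.79% and 14.32% of the 50-base stretches of their transcripts also occur in other genes, most of them MHC genes.

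The calls of the 4 class II genes rested on few libraries. Without wild-type library 3, 0 of the 9 MHC genes passed, with adjusted p = 0.0603 for Cd74, without PAD4 knockout library 1 the count was 1 (Cd74), without wild-type library 2 it was 2 (Cd74 and H2-Aa), and without wild-type library 1 it was 3, with H2-Ab1 lost. With no filter on level 0 passed, and Cd74 had an adjusted p of 0.121. Of the full lists, which include markers that kidney shares, 18 of 20 colon markers tested were lower and 1 higher, 10 of 12 lung markers lower and 1 higher, and 8 of 10 smooth muscle markers lower, while 6 of 12 kidney markers were higher. Over all genes tested, 8.79% were lower and 8.89% higher. The colon markers named above moved with these genes: 15 of 15 tested were lower, and so were 9 of 10 tested lung markers that kidney does not share, whose sum was 298 to 851 FPKM in wild type and 42.9 to 212 FPKM in the knockout. With the mean of the colon and lung markers as a covariate, 0 of the 9 MHC genes passed and the change of Cd74 was -0.16 ± 0.81 (SE). A covariate of the markers not shared with kidney, chosen after seeing the data, also gave 0. The sums of those markers do not overlap between the groups, while those of the full lung list do (475 to 1009 FPKM in wild type and 410 to 920 FPKM in the knockout). The part of the markers and that of the genotype cannot be told apart.

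In kidneys labelled IL-33 knockout the same 4 class II genes were higher than in wild type, by between 3.68-fold and 4.65-fold in the means. Of 9 MHC genes tested, 5 were higher and 0 lower: Cd74, H2-Aa, H2-Ab1, H2-Eb1 and, by a smaller amount, B2m. In this comparison 39.1% of the 14513 genes tested were called, and 22.2% were called higher. The heavy chain and transporter genes of class I did not pass.

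Cd74 had 31.99, 15.7 and 21.8 FPKM in wild-type kidneys and 86.7, 86.2 and 98.8 FPKM in the libraries labelled IL-33 knockout. The lowest of the latter was far above the highest wild-type library, and the change was 1.98 ± 0.22 (SE), limma adjusted p = 0.000525. H2-Aa had 4.02, 2.42 and 2.57 FPKM in wild-type kidneys and 12.2, 11.9 and 13.6 FPKM in the labelled knockout (1.78 ± 0.16 (SE), limma adjusted p = 0.000209). H2-Ab1 had 9.30, 4.89 and 4.72 FPKM against 20.9, 21.4 and 27.3 FPKM (1.77 ± 0.23 (SE), limma adjusted p = 0.00101). The beta chain gene H2-Eb1 had the largest change of the 10 genes here: it had 7.88, 4.44 and 4.597 FPKM in wild-type kidneys and 25.5, 24.8 and 28.3 FPKM in the labelled knockout (2.07 ± 0.19 (SE), limma adjusted p = 0.000224). None of these 3 chain genes overlapped between the groups. In all 4 genes wild-type library 1 was the highest wild-type library, and it still lay under every library of the labelled knockout. Each of the 4 passed with any library left out, with adjusted p of at most 0.00566.

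Ciita had 0.0442, 0.0304 and 0.0984 FPKM in wild-type kidneys and 0.222, 0.356 and 0.148 FPKM in the labelled knockout. Its groups did not overlap, at levels under those tested.

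B2m had 217, 151 and 220.2 FPKM in wild-type kidneys and 308, 245 and 325 FPKM in the libraries labelled IL-33 knockout, with no overlap. The change was 0.58 ± 0.17 (SE), limma adjusted p = 0.0311. B2m did not pass when genes of all levels were tested (adjusted p = 0.0917), under median-of-ratios scaling (0.0691), or without wild-type library 2 (0.0505), labelled knockout library 1 (0.0965) or labelled knockout library 3 (0.107). H2-K1 had 105, 93.1 and 110.2 FPKM in wild-type kidneys and 91.4, 87.9 and 92.6 FPKM in the labelled knockout. The change of H2-K1 was -0.18 ± 0.09 (SE), limma adjusted p = 0.161. H2-D1 had 125, 104 and 139 FPKM against 96.2, 102 and 107 FPKM, with overlap (-0.26 ± 0.12 (SE), limma adjusted p = 0.125). Without wild-type library 2 both heavy chain genes passed as lower, H2-K1 with -0.25 (adjusted p = 0.0368) and H2-D1 with -0.37 (adjusted p = 0.0177). Tap1 had 2.88, 1.97 and 3.87 FPKM in wild-type kidneys and 2.53, 2.37 and 2.89 FPKM in the labelled knockout, with overlap (limma adjusted p = 0.714). Tap2 had 6.69, 6.24 and 8.59 FPKM against 6.42, 6.62 and 6.69 FPKM, also with overlap (limma adjusted p = 0.564). The 95% intervals of the changes were -0.52 to 0.34 for Tap1 and -0.39 to 0.20 for Tap2. They hold for this fit alone. With the colon and lung markers as a covariate the changes were 0.958 and 0.656, outside these intervals.

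Colon markers not shared with kidney were at a lower level in set 2 than in set 1. Their sum there was 20.4 to 41.4 FPKM in wild type and 5.84 to 7.88 FPKM in the labelled knockout. Of the 15 markers, 11 were listed in set 2 and 3 reached the level tested, with 1 lower and 0 higher. The sum can rest on few genes, so it does not show that colon markers fell as a group there. Of the full lists, 2 of 6 colon markers were lower and 1 higher, 1 of 3 lung markers lower and 1 higher, 0 of 6 smooth muscle markers passed, and 7 of 13 kidney markers were higher and 1 lower. Over all genes tested, 16.8% were lower and 22.2% higher. With the mean of the colon and lung markers as a covariate, 0 of the 9 MHC genes passed in set 2, while the change of Cd74 was 2.12 ± 0.82 (SE). That covariate held the full lists, whose colon sums overlapped here (322 to 557 FPKM in wild type and 403 to 485 FPKM in the labelled knockout). It thus included markers that kidney shares, and a covariate without them was not fitted in set 2. Of the markers not shared, only 3 colon markers and 1 lung marker reached the level tested. Marker level and label cannot be told apart in this set either, and the lost calls do not show which markers took part.

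**Figure D2:**
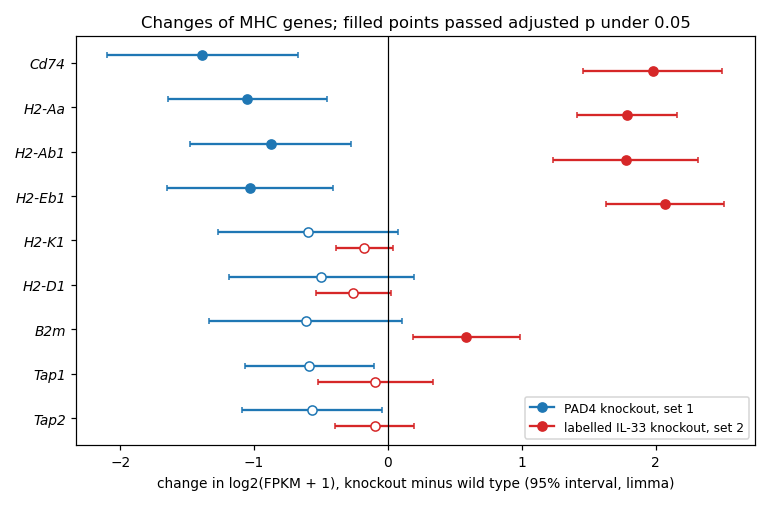
Change in log2(FPKM + 1), knockout minus wild type, of the 9 MHC genes tested, with 95% intervals from limma. Filled points passed an adjusted p of 0.05. The 4 class II genes lie between -1.39 and -0.88 in the PAD4 knockout and between 1.77 and 2.07 in the labelled IL-33 knockout, while H2-K1, H2-D1, Tap1 and Tap2 are open in both.

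The difference between the changes was tested as the change in the labelled IL-33 knockout minus the change in the PAD4 knockout, over all 12 libraries. Of 9 MHC genes, 5 had a difference above 0 that passed, where 6.18% of the 13010 genes tested did so, 6.23% had a difference below 0 that passed and 12.4% passed in either direction. The largest was that of Cd74, 3.36 ± 0.40 (SE), limma adjusted p = 0.000274, followed by H2-Eb1 (3.10 ± 0.35 (SE), adjusted p = 0.000204). H2-Aa (2.83 ± 0.33 (SE), adjusted p = 0.000228) and H2-Ab1 (2.65 ± 0.37 (SE), adjusted p = 0.000662) came next. B2m differed by 1.20 ± 0.37 (SE) with an adjusted p of 0.0484, a call that was lost in 14 of 21 other settings. The differences of H2-K1 (0.42, adjusted p = 0.361), H2-D1 (0.24, 0.668), Tap1 (0.49, 0.246) and Tap2 (0.47, 0.224) did not pass. With the colon and lung markers as a covariate Cd74, H2-Aa and H2-Eb1 still passed, and H2-Ab1 did not (2.03 ± 0.54 (SE), adjusted p = 0.0622). Set and knockout line go together in this design, so a difference between the knockouts and a difference between the sets in how the injury ran cannot be told apart.

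Ratios within a library do not depend on how that library was scaled. The summed FPKM of H2-Aa, H2-Ab1 and H2-Eb1 was 17.0%, 15.3% and 18.8% of the summed FPKM of H2-K1 and H2-D1 in the wild type of set 1, and 8.61%, 12.8% and 13.6% in the PAD4 knockout. In set 2 it was 9.20%, 5.97% and 4.76% in wild-type libraries, against 31.2%, 30.6% and 34.7% in the labelled IL-33 knockout. On the log2 scale the ratio thus changed by -0.57 from wild type to labelled PAD4 knockout and by 2.33 to the labelled IL-33 knockout. The knockout mean was 0.686 and 4.84 times the wild-type mean, and neither pair of groups overlapped. The level of Cd74 as a percentage of that of B2m behaved alike, at 27.3% to 33.3% and 14.7% to 22.5% in set 1 and at 9.89% to 14.7% and 28.2% to 35.1% in set 2. Proportions among the class II chain genes also differed between libraries. H2-Eb1 was at 1.603 ± 0.153 times the FPKM of H2-Aa in the wild type of set 1 and 1.71 ± 0.0721 times in the PAD4 knockout, and at 1.86 ± 0.0893 and 2.08 ± 0.00684 times in set 2 (SD, n = 3), where the groups did not overlap. H2-Ab1 was at 1.27 ± 0.187 and 1.51 ± 0.167 times the FPKM of H2-Aa in set 1, and at 2.06 ± 0.241 and 1.84 ± 0.152 times in set 2.

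**Figure D3:**
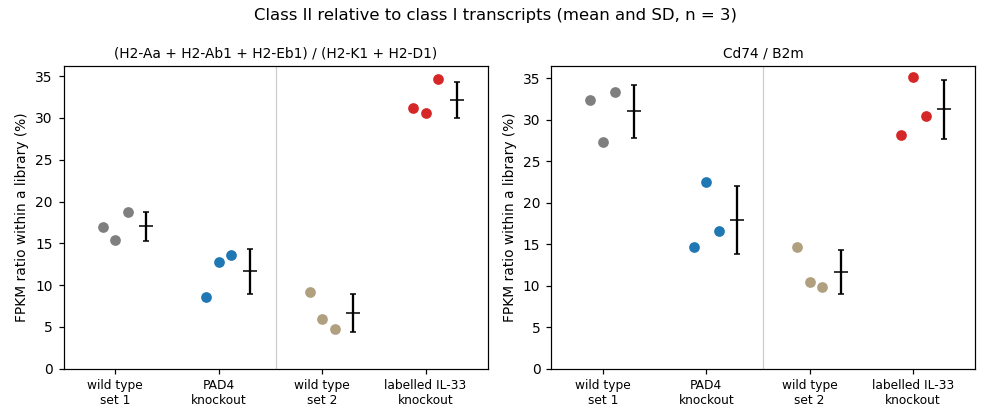
Left, summed FPKM of the class II chain genes as a percentage of that of the class I heavy chain genes in each library (points), with group mean and SD (bars, n = 3). Right, Cd74 as a percentage of B2m. The labelled IL-33 knockout lies at 30.6% to 34.7% on the left, above its wild type at 4.76% to 9.20%.

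The class II genes followed each other over the 12 libraries once each set was centred on its mean, with Pearson's r between 0.965 and 0.994 for the 6 pairs of Cd74, H2-Aa, H2-Ab1 and H2-Eb1. With each group centred on its own mean, r for these pairs was between 0.832 and 0.970. H2-K1, H2-D1, Tap1 and Tap2 had r between 0.803 and 0.934 with each other, and between 0.112 and 0.461 with the class II genes. With each group centred on its own mean, class I and class II genes followed each other more closely: r between these 4 genes and the class II genes was then 0.329 to 0.814. B2m had r = 0.865 to Cd74 and 0.631 to H2-K1 with sets centred, and 0.801 to Cd74, 0.837 to H2-K1 and 0.873 to H2-D1 with groups centred. These correlations describe libraries that share sets and groups, and FPKM scaling within a library moves all its genes together.

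The other genes of the class II pathway were few at the levels tested. H2-DMa and H2-DMb1, the chains of the DM molecule that exchanges peptides on class II, were the 2 tested of 7 further class II genes. In the labelled IL-33 knockout H2-DMb1 rose from 3.77 ± 0.41 to 8.99 ± 2.7 FPKM (change 1.04, limma adjusted p = 0.0044). H2-DMa was at 0.493 ± 0.13 FPKM in wild type and 2.06 ± 0.23 FPKM in the labelled knockout. It reached the level tested only through the labelled knockout, so its values are given as a description. In the PAD4 knockout neither H2-DMa (-0.32) nor H2-DMb1 (-0.33) passed. Of 6 lysosomal enzymes that cut antigens or the invariant chain, 1 rose and 2 fell in each comparison. Over all genes tested, 8.89% rose and 8.79% fell in set 1, and 22.2% rose and 16.8% fell in set 2. Ctss, the protease that removes most of the invariant chain, went down in PAD4 knockout kidneys from 25.3 ± 9.2 to 7.93 ± 4.8 FPKM (-1.65, limma adjusted p = 0.00569, and 0.0663 without wild-type library 3). In the labelled IL-33 knockout Ctss was at 11.0 ± 1.2 FPKM against 6.96 ± 3.4 FPKM and did not pass (limma adjusted p = 0.128). Ctsl, a related protease, fell in both, and Lgmn, asparagine endopeptidase, rose in both. Of 5 costimulation genes tested in set 1, Cd86, a ligand of the T cell receptor CD28, fell (limma adjusted p = 0.0166, tested through its wild-type level), and of 2 tested in set 2, Cd274, which encodes PD-L1, rose (limma adjusted p = 0.0267, lost without wild-type library 2 or any of the labelled knockout libraries). The medians of the lysosomal list, -0.36 and -0.05, compare with 0.016 and 0.044 over all genes tested.

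Class I relatives moved in no common direction. Of 13 tested, 0 rose and 2 fell in the PAD4 knockout (median -0.29), and 3 rose and 3 fell in the labelled IL-33 knockout (median 0.04). Over all genes tested, 8.89% rose and 8.79% fell in the PAD4 knockout, and 22.2% rose and 16.8% fell in the labelled IL-33 knockout. H2-Q2 went down in PAD4 knockout kidneys from 3.24 ± 0.69 to 0.94 ± 0.39 FPKM (limma adjusted p = 0.00195), and H2-M3, which presents formylated peptides, fell by 0.57 on the log2 scale, a call that held with wild-type library 1 left out but with none of the other 5. In the labelled IL-33 knockout H2-Q7, H2-Q6 and H2-T24 rose, H2-Q7 from 1.47 ± 0.38 to 3.79 ± 0.58 FPKM (limma adjusted p = 0.00238). Hfe, which controls iron uptake, fell there from 16.8 ± 2.9 to 6.75 ± 0.95 FPKM (limma adjusted p = 0.000821), and Cd1d1, which presents lipids, and Fcgrt, the neonatal Fc receptor, fell as well. H2-Q genes share sequence with H2-D1, so reads could be split among them.

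Of 6 genes that load or trim class I peptides, 3 rose and 0 fell in the labelled IL-33 knockout, and 0 passed in the PAD4 knockout. Over all genes tested, 22.2% rose in the former comparison. The 3 were general chaperones of the endoplasmic reticulum that also serve class I: Calr, calreticulin, from 101 ± 18 to 280.1 ± 24 FPKM (1.48, limma adjusted p = 0.000286), Pdia3 and Canx, calnexin. Tapbp, tapasin, which serves class I alone, was at 25.9 ± 2.7 and 27.9 ± 0.6 FPKM. None of the 5 immunoproteasome genes passed by limma in either comparison, and Psmb8 was at 4.85 ± 1.5 against 2.85 ± 0.58 FPKM in set 1 and 2.66 ± 1.0 against 3.01 ± 0.58 FPKM in set 2.

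Among 15 regulators of MHC genes, 1 rose and 2 fell in the PAD4 knockout and 2 rose and 5 fell in the labelled IL-33 knockout, with medians of -0.25 and 0.01. Over all genes tested, 8.89% rose and 8.79% fell in the former comparison, and 22.2% rose and 16.8% fell in the latter. The 5 falls became 2 without labelled knockout library 1 or 3 and 3 without library 2. Ifngr1 and Ifngr2, the receptor chains for interferon-gamma, fell in both comparisons. Rfx5, the subunit of RFX that binds the X box, was at 4.65 ± 1.1 FPKM in the wild type of set 2 and 2.90 ± 0.21 FPKM in the labelled knockout (limma adjusted p = 0.033, lost without 5 of the 6 libraries in turn). Rfx5 was at 1.59 ± 0.64 and 2.43 ± 0.82 FPKM in set 1 (limma adjusted p = 0.259). Nfyc, a subunit of NF-Y, rose in both, from 8.09 ± 2.5 to 19.4 ± 6.4 FPKM in PAD4 knockout kidneys and from 11.1 ± 2.1 to 23.1 ± 0.8 FPKM in the labelled IL-33 knockout. Nlrc5, the class I counterpart of CIITA, and Irf1 passed in neither, with Irf1 at 7.91 ± 1.7 against 4.36 ± 1.5 FPKM in set 1 (limma adjusted p = 0.064). Of the interferon-gamma response genes outside antigen presentation, 2 of 10 fell in the PAD4 knockout (Gbp2 and Iigp1), where 8.79% of all genes tested did. In the labelled IL-33 knockout 2 of 8 rose (Igtp and Gbp3), near the 22.2% of all genes tested that rose there. Gbp3 did not pass without wild-type library 1 or 2 or labelled knockout library 1 or 3. Ifng itself was listed at 0 in all 6 libraries of set 2.

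**Figure D4:**
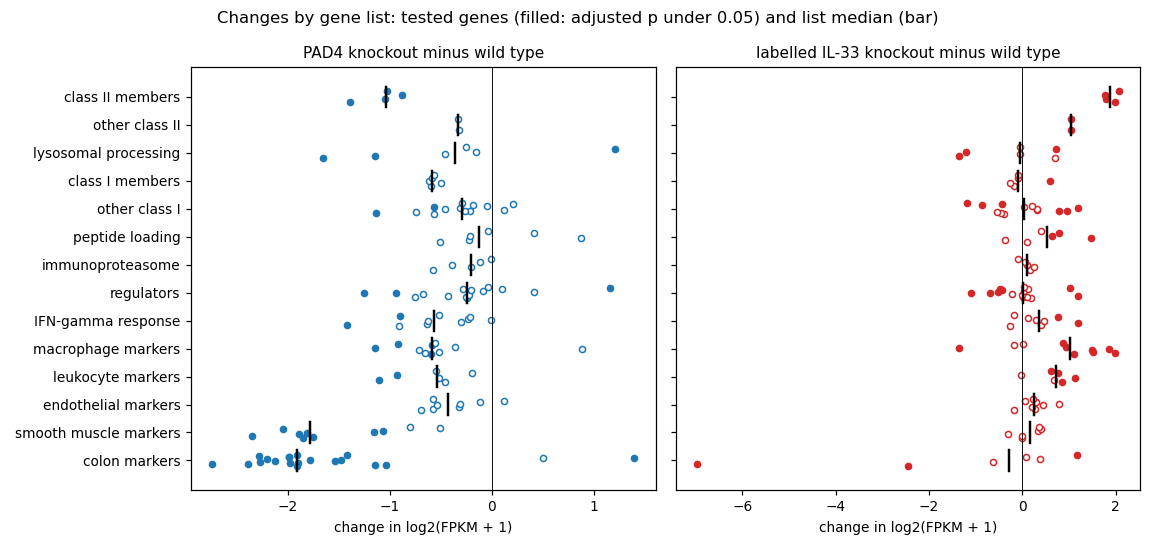
Change in log2(FPKM + 1) of each tested gene (points, filled where the adjusted p was under 0.05) by gene list, with the list median (bar), for the PAD4 knockout (left) and the labelled IL-33 knockout (right). The horizontal axes differ in range. The class II medians are -1.04 and 1.88, and those of the macrophage markers -0.59 and 1.03.

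Markers of cells that make class II differed between the groups for some cell types and not for others. In bulk tissue, fewer cells of a type and less RNA per cell cannot be told apart. Of 10 macrophage and monocyte markers tested in the PAD4 knockout, 0 were higher and 4 lower (Ly6c2, Adgre1, Mrc1 and Cd68), with 1 to 6 lower when each library was left out. In the labelled IL-33 knockout 7 of 10 were higher and 1, Cd68, lower. Over all genes tested, 8.79% were lower in the PAD4 knockout and 22.2% higher in the labelled IL-33 knockout. Of the 7, Adgre1, Cx3cr1 and Fcgr1 reached the level tested only through the labelled knockout, so their calls are given as a description, while C1qa, C1qb, C1qc and Csf1r were above it in both groups. Likewise Ly6c2, Adgre1 and Mrc1 reached it in set 1 only through wild type. The summed FPKM of the 12 markers was 38.2 to 69.4 in wild type and 25.9 to 40.0 in the PAD4 knockout, which overlap, and 28.7 to 44.3 in wild type and 69.4 to 76.0 in the labelled IL-33 knockout, which do not. Adgre1, which encodes the macrophage marker F4/80, went from 0.160 ± 0.04 to 1.51 ± 0.16 FPKM in the labelled IL-33 knockout, which is given as a description. The complement gene C1qa, made by resident macrophages, went from 3.92 ± 1.1 to 18.04 ± 0.59 FPKM (limma adjusted p = 0.000183). Csf1r, the receptor for the macrophage growth factor CSF1, rose there from 2.73 ± 1.1 to 12.2 ± 0.47 FPKM (limma adjusted p = 0.00049). In the PAD4 knockout Csf1r was at 7.47 ± 3.4 FPKM against 3.39 ± 1.0 FPKM in wild type and did not pass (limma adjusted p = 0.057).

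Dendritic cell markers were low, and 2 of 12 in set 1 and 3 of 12 in set 2 reached the level tested. Their sum was 4.84 to 7.79 FPKM in wild type and 2.38 to 5.00 FPKM in PAD4 knockout kidneys, where Batf3 fell, and 3.69 to 5.37 and 4.65 to 5.47 FPKM in set 2, where 0 of 3 passed. B cell markers summed to 1.86 to 3.53 FPKM in wild type and 0.685 to 1.31 FPKM in PAD4 knockout kidneys, and to 0.0600 to 0.479 and 0.771 to 0.991 FPKM in set 2. Markers shared by leukocytes summed to 13.0 to 23.03 FPKM and 6.56 to 12.9 FPKM in set 1, with 2 of 6 tested lower (Laptm5 and Cd53). In set 2 they summed to 4.14 to 9.84 FPKM and 15.05 to 16.5 FPKM, with 4 of 6 higher. Of these 4, Cd48 and Rac2 reached the level tested only through the labelled knockout. Over all genes tested, 8.79% were lower in set 1 and 22.2% higher in set 2. Of T and NK cell markers, 0 of 1 tested passed in set 1 and of 2 in set 2 Cd8a, at 0.0784 ± 0.026 and 1.02 ± 0.14 FPKM, reached the level tested only through the labelled knockout. Of 8 endothelial markers 0 passed by limma in either set. No marker of the macrophage, dendritic cell, B cell and leukocyte lists was listed at 0 in all 6 libraries of a set. Of the genes outside the MHC named as called in the PAD4 knockout from these lists, Ifngr2, Gbp2, Ly6c2 and Laptm5 passed with any library left out. Gbp2, Cd68 and Cd53 did not pass under median-of-ratios scaling or quantile normalization, Lgmn not under the latter and Ifngr1 not under TPM scaling. Ctss, Ctsl, Lgmn, Ifngr1, Nfyc, Adgre1, Mrc1, Cd68, Batf3, Cd86 and Cd53 did not pass without wild-type library 3, nor Iigp1 without knockout library 1. The part of these cells in the class II values was not tested.

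**Figure D5:**
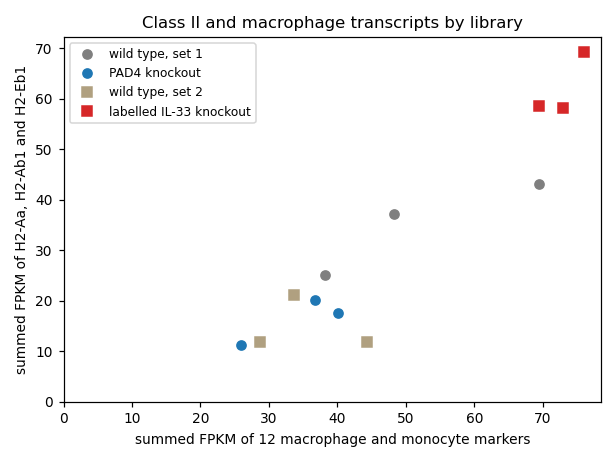
Summed FPKM of the class II chain genes against summed FPKM of 12 macrophage and monocyte markers, a point for each of the 12 libraries. The labelled IL-33 knockout lies at the upper right, at marker sums of 69.4 to 76.0. Wild-type library 3 of set 1 has a marker sum of 69.4 as well, with a class II sum of 43.1.

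The genes most like the class II genes over the 12 libraries were sought after centring each set, among 13002 genes from which the MHC members were left out. By Pearson's r with the mean of Cd74, H2-Aa, H2-Ab1 and H2-Eb1 they were Clec2h (0.970), Adgre1 (0.966), Cela1 (0.960), C1qa (0.959), C1qb (0.956), Apoe (0.953), Pltp (0.951) and Mndal (0.951). Clec2h, a lectin-like gene, was at 8.20 ± 2.04 FPKM in the wild type of set 1, 2.44 ± 1.35 in the PAD4 knockout, 0.328 ± 0.0565 in the wild type of set 2 and 6.39 ± 0.530 in the labelled IL-33 knockout. It reached the level tested in set 2 only through the labelled knockout, and so did Adgre1, which reached it in set 1 only through wild type. The places of both genes are given as a description. For the mean of H2-K1, H2-D1 and B2m, the nearest were Ptges3-ps (0.982), Rcn2 (0.943), Cd200 (0.931), Cd53 (0.931), Calu (0.930), Psmb8 (0.930), Stim1 (0.923) and Helz2 (0.922). No gene was on both lists. With sets but not groups centred, these r values include the differences between the groups, and they are a description.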

How the data were processed

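The authors deposited FPKM values, 1 table per set and 1 column per library, as the file headers show. Poly(A) RNA and strand-specific libraries are named in the labels' protocols. HISAT2, StringTie, cutadapt, FastQC, edgeR and DESeq2 appear in the submitters' processing notes, without order or version, and the genome build is not given in the sources used here. Wild-type columns of set 2 carry the model's abbreviation and a number, and no other group of that set matches them. A GENCODE annotation gave symbols to 30212 of 32199 and 29690 of 31719 genes. Ratios of low values showed no steps of whole reads, so depth is unknown.

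log2(FPKM + 1) was analysed with limma 3.58.1 in R 4.3.3 (eBayes with trend) over genes whose mean FPKM reached 0.5, a script tested on simulated data. The adjusted p threshold was 0.05, and 3 against 3 libraries cannot go below p = 0.1 in an exact permutation test. The pseudocount understates changes of low genes. Values after ± are SD unless marked SE. Overlap between groups is given as a description, and its share over all genes was not counted.

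The members, the 18 other lists and the tests were chosen with earlier results of these data known. Named were the members, Padi4, Il33, Nlrc5, Irf1, Rfx5, up to 4 called genes of each list by lowest adjusted p (or the 2 highest in level), and the 8 genes nearest in pattern to each class. Other genes named beside a count of 5 or fewer, and Xist, Ddx3y, Uty, Eif2s3y, Tapbp, Psmb8, Ifng and Csf1r, were chosen after their values were seen. A further gene under this rule is not reported here. Replicates are separate animals, per the series' design. Alternatives were other pseudocounts, filters and scalings, no trend, a replicate block, a marker covariate and each library left out.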

Additional observations from a re-analysis of the deposited data

Results flagged for a closer look

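The changes in the 2 knockouts differed for 5 MHC genes by a test of the difference itself (limma contrast over 12 libraries, labelled IL-33 knockout change minus PAD4 knockout change). The differences were 3.36 for Cd74, 3.10 for H2-Eb1, 2.83 for H2-Aa, 2.65 for H2-Ab1 and 1.20 for B2m, on the log2 scale. For the 4 class II genes the change was below 0 in the PAD4 knockout and above 0 in the labelled IL-33 knockout, with 3 of 3 knockout libraries beyond their own wild type in each set. The share of all genes tested that also lacked overlap was not counted, so the lack of overlap is a description. B2m overlapped between the groups of set 1. In the PAD4 knockout 18 of 20 colon markers and 10 of 12 lung markers tested were lower as well, where 8.79% of all genes tested were. With the mean of both lists as a covariate 0 of 9 MHC genes passed there, with Cd74 at -0.16, H2-Aa at -0.09 and H2-Eb1 at -0.15, so marker level and genotype cannot be told apart. With the same covariate the difference between the knockouts passed for 3 genes, Cd74 (2.29), H2-Eb1 (2.34) and H2-Aa (2.00). The part of macrophage transcripts and of Xist in these values was not tested.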

How the results depend on the processing

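PAD4 knockout: 4 MHC genes and 2473 genes in all were called. With no filter on level limma called 0 and 0 genes. Quantile normalization gave 7 MHC genes and 3678 in all. The colon and lung covariate gave 0 MHC genes and 69 in all, and, chosen after seeing the data, one without markers shared with kidney gave 0 and 76; B2m turned to 0.126 and 0.0814. Leaving out each library gave 0 to 4 MHC genes and 1064 to 3534 in all. With the replicate number as a block 2 MHC genes passed, Cd74 and H2-Aa (H2-Ab1 adjusted p = 0.137, H2-Eb1 0.074). Same-numbered libraries did not deviate together (r = -0.0147, -0.112 and -0.147, and -0.00875, 0.131 and 0.00759 in set 2), so they share only a number.

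Labelled IL-33 knockout: 5 and 5671 genes were called. The covariate, which included markers that kidney shares, gave 0 and 16, with H2-K1 at 0.133, H2-D1 at 0.416, Tap1 at 0.958 and Tap2 at 0.656. Leaving out each library gave 4 to 6 MHC genes and 3626 to 6131 in all, and without wild-type library 3 Tap1 and Tap2 were at 0.0796 and 0.0213 (at -0.276 and -0.181 without wild-type library 2). Cd74 over B2m changed by 1.44, against 2.33 for class II over class I.

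Difference: 5 and 1615 genes were called, with 1011 at a mean FPKM of at least 2, 3101 under median-of-ratios scaling (39.5% of them higher, against 49.8%) and 3112 under quantile normalization. The covariate gave 3 and 325, with H2-K1 at -0.113, H2-D1 at -0.213, Tap1 at -0.0488 and Tap2 at -0.0567. Leaving out each library gave 4 to 5 and 1055 to 1859. The cause of these moves was not tested. Unknown depth limits what can be said of Ciita.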

Other observations

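The wild types of both sets differed from each other in the same within-library ratio. Class II chain transcripts were 15.3% to 18.8% of class I heavy chain transcripts in the wild type of set 1 and 4.76% to 9.20% in that of set 2, although the labels give both the same strain, sex, age and injury. Cd74 was at 27.3% to 33.3% of B2m in the former and 9.89% to 14.7% in the latter. Cd74 over B2m in the labelled IL-33 knockout, 28.2% to 35.1%, was in the range of the wild type of set 1, and in the PAD4 knockout, 14.7% to 22.5%, it began where the range of the wild type of set 2 ended. The markers of other tissues differed as well: colon markers not shared with kidney summed to 360 to 594 FPKM in the wild type of set 1 and 20.4 to 41.4 FPKM in that of set 2, smooth muscle markers to 354 to 765 and 41.5 to 59.5 FPKM, and Xist was at 1.78 to 4.97 and 0 to 0.0104 FPKM. Their part in the ratio was not tested. These levels come from separately scaled tables and were not tested across sets.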
